A study of Mus musculus with 2 samples.

Results

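The genes described here are 9 imprinted genes with known roles in growth: H19, Igf2, Cdkn1c, Meg3, Dlk1, Peg3, Mest, Grb10 and Plagl1. They were chosen by name from a list drawn up with the UMI counts of these same cell types and diets in view, were found by their symbols among the 31053 genes of the count matrices, and had 1 entry each. The cells came from the aortas of male Apoe-/- C57BL/6 mice aged 16 weeks. Apoe-/- mice lack apolipoprotein E, which clears lipoprotein remnants from plasma, and controls carried the same deletion. The control library (ND) came from mice on chow, and the other library (HFD) from mice on a high-fat, high-cholesterol diet given after weaning. Each library pooled the aortas of 2 mice, so there was 1 library per diet and no replicate. All differences between diets are therefore given as a description with no test, and the intervals beside them are exact 95% intervals that cover counting error only.

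An imprinted gene is expressed mainly from the copy inherited from a given parent, because methylation laid down in the germ line differs between the copies. Many imprinted genes act on fetal growth, with paternally expressed genes such as Igf2 tending to promote it and maternally expressed genes such as H19, Cdkn1c and Grb10 tending to restrain it. Most are turned down after birth and stay active in a limited set of adult cells. In vessels they are best known from development and from stem and progenitor cells. Unique molecular identifiers (UMIs) count RNA molecules and do not separate the parental copies, so the values below are sums over both.

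Within the set, the genes fall into a few clusters of the genome (GENCODE M21 on GRCm38). H19 (chr7:142575529-142578143), a long noncoding RNA, lies 72.6 kb from Igf2 (chr7:142650766-142666816), which encodes insulin-like growth factor II. Cdkn1c (chr7:143458339-143461050), an inhibitor of cyclin-dependent kinases, lies 792 kb beyond Igf2 in the neighbouring imprinted domain. Dlk1 (chr12:109452823-109463336), a membrane protein related to Notch ligands, lies 77.7 kb from the long noncoding RNA Meg3 (chr12:109541001-109571726). The other members stand alone: the zinc finger gene Peg3 (chr7:6703892-6730431), the hydrolase family gene Mest (chr6:30723547-30748465), Grb10 (chr11:11930508-12038683), an adaptor that binds the insulin and IGF1 receptors, and the zinc finger factor Plagl1 (chr10:13060504-13131694). H19, Igf2, Cdkn1c, Meg3, Mest and Plagl1 each overlap at least 1 annotated gene on the opposite strand. The sources used here do not state whether counting used strand, and the part of these partners in the counts was not tested.

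H19 carries the hairpin of miR-675 (chr7:142577064-142577147, minus strand) within an exon of 3 of its 7 annotated transcripts. The mature microRNAs cut from it are shown because they are the best known product of this transcript; they were not measured in these libraries. The sequences are from RefSeq (GRCm38.p6), and capitals mark the seed, bases 2 to 8.
mmu-miR-675-5p: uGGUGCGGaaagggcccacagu
mmu-miR-675-3p: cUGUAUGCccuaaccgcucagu

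Promoter windows, 250 bases before to 50 after the start, were listed for 7 of the 9 genes (14 windows). Meg3 and Peg3 are shown because their levels went together across cell classes. Capitals mark CpG dinucleotides, the sites of the methylation on which imprinting rests; the 250 bases before the start are printed, from RefSeq (GRCm38.p6), on the strand of the gene.
Meg3 (chr12:109540746-109540995): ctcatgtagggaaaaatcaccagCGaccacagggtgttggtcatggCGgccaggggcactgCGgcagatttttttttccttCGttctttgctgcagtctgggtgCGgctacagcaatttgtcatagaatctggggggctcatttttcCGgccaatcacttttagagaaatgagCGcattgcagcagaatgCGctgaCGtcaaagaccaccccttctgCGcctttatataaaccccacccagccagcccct
Peg3 (chr7:6730420-6730669): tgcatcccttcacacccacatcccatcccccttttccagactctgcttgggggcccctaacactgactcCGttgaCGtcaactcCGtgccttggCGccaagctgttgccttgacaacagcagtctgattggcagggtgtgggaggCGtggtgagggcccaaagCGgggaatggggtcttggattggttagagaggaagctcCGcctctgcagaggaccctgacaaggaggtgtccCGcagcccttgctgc
The 250 bases of Meg3 held 10 CpG and those of Peg3 held 8. Over the full windows of 300 bases both held 13, and another listed Meg3 window (chr12:109545148-109545447) held 1, against a median of 7 over 32851 windows of that length, and 11 of the 14 windows of these genes were above that median. The motif GGGGCCCC, which Plagl1 protein is known to bind and which reads the same on both strands, was found in 1 of the 14 windows, that of Peg3, and in 1.08% of all windows.

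After the filter, 5416 ND cells with 27137322 UMIs and 2739 HFD cells with 17191279 UMIs were kept, at medians of 3732.5 and 5336 UMIs per cell. The filter left out 47.1% of ND and 80.8% of HFD barcodes, nearly all for mitochondrial RNA above 30%. The libraries shared 39 barcode sequences, of which 1 was kept in both, and no shared barcode had the same counts in both. Cells were placed in a class when at least 2 genes of its gate, a short list of marker genes, had a UMI and no other gate was passed. This gave 2159 ND and 1002 HFD endothelial cells, 815 and 356 fibroblasts, 342 and 480 macrophages, 253 and 26 T cells and 507 and 13 B cells. Another 974 ND and 694 HFD barcodes passed several gates and were set apart as mixed. Markers not used for gating were higher in the endothelial, fibroblast and macrophage classes of both libraries than over all kept cells (4 of 4 in each).

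Endothelial cells were split further. A capillary gate (Gpihbp1, Cd36, Car4, Rgcc) held 1603 ND and 698 HFD cells, and a gate of genes known from the lumen of large arteries, called here the Vwf gate (Cytl1, Vcam1, Vwf, Fbln5, Bmp4), held 195 and 74. A gate of Stc1, Hey1 and Sema3g held 321 and 215 cells. Of the arterial markers Gja4, Gja5 and Efnb2, 2 of 3 were higher in its ND cells than over all kept cells and 1 of 3 in its HFD cells, so it is called the Stc1 gate and given no vessel type. Few barcodes passed the mural gate alone (26 and 11). A mural-rich set of 92 and 87 barcodes, with at least 4 of the 8 mural gate genes whatever other gates they passed, was added after these numbers had been seen. It also carried the endothelial gene Cdh5 at 980 CPM in ND and 872 CPM in HFD, against 1646 CPM and 1548 CPM in endothelial cells, and fibroblast gate genes at 751 CPM in ND and 4203 CPM in HFD, against 12660 CPM and 7739 CPM in fibroblasts. The part of endothelial and fibroblast RNA in its values was not tested.

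Cdkn1c, whose product holds cells out of the division cycle, had 2684 UMIs in ND and 5336 in HFD over all kept cells. In endothelial cells it was at 152 CPM in ND (143.9 to 159.5; 1476 UMIs) and at 574 CPM in HFD (555 to 594; 3332 UMIs). CPM is the summed UMIs of the gene per 1000000 UMIs of the class. The HFD level was 3.79 times the ND level, a log2 ratio of 1.92 (1.83 to 2.01), and 99.6% of the 11890 endothelial genes with at least 20 UMIs had a lower ratio. The median of those genes was -0.18, against which the log2 ratio of Cdkn1c was 2.10. Cdkn1c was chosen with the diet differences of these libraries known, so its rank among those genes is a description only.

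The difference was spread over many cells. Cdkn1c had at least 1 UMI in 723 of 2159 ND endothelial cells (33.5%, exact 31.5% to 35.5%) and in 687 of 1002 HFD cells (68.6%). With each cell thinned to 1000 UMIs, which sets depth equal and left out 7 ND cells, the shares were 12.6% and 34.0%. The 5 cells with the most Cdkn1c UMIs held 4.13% of its endothelial UMIs in ND and 4.65% in HFD, and without them the log2 ratio was 1.91. In B cells, a type not known for Cdkn1c, 1.58% of ND cells had a UMI at a median depth of 3429, or 0.197% after thinning. In HFD, 1 of 13 B cells and 2 of 26 T cells had a UMI (7.69% in each), and after thinning none did.

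By subset, Cdkn1c was at 149.5 CPM in ND and 623 CPM in HFD in capillary-gate cells, a log2 ratio of 2.06 (1.95 to 2.17). Of these cells, 1105 of 1603 in ND and 200 of 698 in HFD had no Cdkn1c UMI, and 8 in ND and 86 in HFD had 8 or more. In Stc1-gate cells the levels were 232 CPM and 680.5 CPM, a log2 ratio of 1.55 (1.39 to 1.72). Both subsets were higher in HFD, and the intervals of the levels did not overlap.

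Vwf-gate cells stood apart. Their Cdkn1c level was 58.5 CPM in ND (45.7 to 73.8; 71 UMIs) and 33.7 CPM in HFD (20.3 to 52.7; 19 UMIs). The log2 ratio was -0.79 (-1.61 to -0.05), with levels whose intervals overlapped. In fibroblasts Cdkn1c was also lower in HFD, at 131 CPM (119 to 145) against 90.0 CPM (76.0 to 106), a log2 ratio of -0.55 (-0.83 to -0.27) against a median of -0.17 over all genes. The direction in fibroblasts depended on the gate: with barcodes of several gates counted in each, the log2 ratio was 0.31. Barcodes passing both the endothelial and the fibroblast gate held Cdkn1c at 109 CPM in ND and 294 CPM in HFD, and their part in that reversal was not tested.

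**Figure D1:**
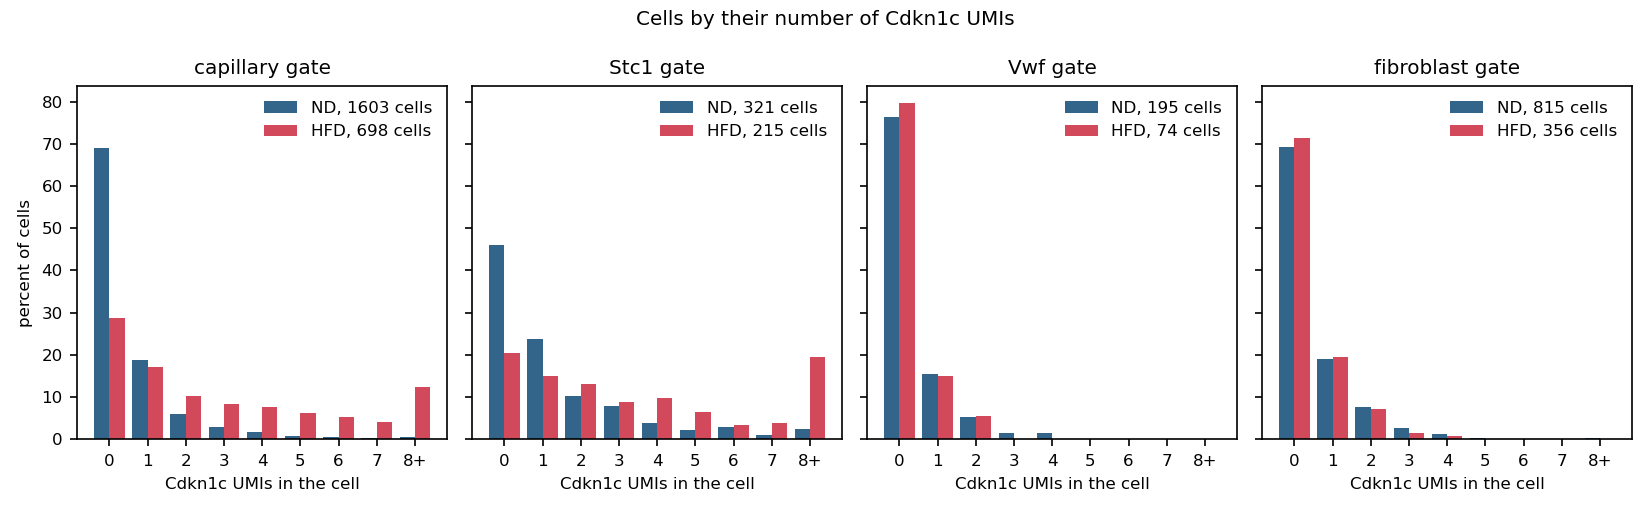
Percent of cells (vertical axis) by the number of Cdkn1c UMIs in the cell (horizontal axis) in 4 gated sets of cells, ND in blue and HFD in red, with the number of cells in each legend; depth per cell was not made equal. In the capillary and Stc1 gates the HFD bars reach to 8 or more UMIs, while in the Vwf and fibroblast gates the bars of the libraries lie close together.

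In macrophages the summed level of Cdkn1c was 13.5 CPM in ND (22 UMIs) and 52.7 CPM in HFD (174 UMIs), a log2 ratio of 1.97 (1.32 to 2.68). The HFD sum came from few cells: 142 of the 174 UMIs lay in 6 of 480 cells, the highest with 79. Without the 5 highest cells of each library the log2 ratio was 0.45 (-0.50 to 1.49), and thinned shares of cells with a UMI were 2.06% in ND and 1.67% in HFD. Those 6 cells held 1 UMI of the 5 endothelial gate genes together and 509 UMIs of the macrophage gate genes, which is 5349 CPM against 10860 CPM over all HFD macrophages. They were deep, with a median of 13154.5 UMIs against 5765.5 in the others. Mfge8, a bridge in the uptake of dying cells, was at 7714 CPM in them against 607 CPM in other HFD macrophages, and Ctsk, a protease of osteoclasts and macrophages, at 347 CPM against 28.4 CPM. In ND no macrophage had 4 or more Cdkn1c UMIs. Per 100 UMIs of the capillary gene Gpihbp1 there were 73.3 Cdkn1c UMIs in ND and 249 in HFD macrophages, against 5.71 and 26.7 in capillary-gate cells. The same ratio was 66.7 and 200.0 in T cells, on 8 and 2 Cdkn1c UMIs, and 29.6 in ND B cells, on 8 UMIs; HFD B cells had 1 UMI of each gene. These ratios rest on few UMIs outside capillary-gate cells, and in HFD macrophages on the 6 cells above. The part of free RNA in the macrophage sums was not tested.

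In mural-rich barcodes Cdkn1c was at 113 CPM in ND and 380 CPM in HFD. Within their subset with pericyte gate genes the levels were 138 CPM and 522 CPM, beside Cdh5 at 1260 CPM and 1161 CPM and fibroblast gate genes at 1009 CPM and 200.1 CPM. The mural-rich subset with contractile gate genes went the other way, at 60.9 CPM in ND (12 UMIs) and 22.2 CPM in HFD (4 UMIs), with overlapping intervals.

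H19 had 734 UMIs in ND and 54 in HFD over all kept cells. In endothelial cells it was at 34.5 CPM in ND (30.9 to 38.4; 336 UMIs) and 0.517 CPM in HFD (0.107 to 1.51; 3 UMIs), a log2 ratio of -6.06 (-8.35 to -4.50). Few cells carried it: 14 of 2159 ND cells and 3 of 1002 HFD cells had a UMI. The 5 highest ND cells held 93.8% of its UMIs, whereas the median gene with at least 100 UMIs had 4.68% there, and of 7777 such genes 2 were as concentrated, H19 itself and the immunoglobulin joining chain gene Jchain. The count interval takes UMIs as independent, which UMIs of 1 cell are not, so it is too narrow for H19.

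By subset, 299 of the 336 ND UMIs lay in 3 of 321 Stc1-gate cells, with 249 in a single cell. No H19 UMI was found in the 215 Stc1-gate cells of HFD. By cells, 0.93% had a UMI in ND (exact 0.19% to 2.71%) and 0% in HFD (up to 1.70%), with overlapping intervals. No fold is given, since the ND level rests on 3 cells. In Vwf-gate cells H19 had 26 UMIs in 6 of 195 ND cells and 1 UMI in 1 of 74 HFD cells. In capillary-gate cells it had 2 UMIs in each library, a level not distinguishable from background at this depth.

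Over all barcodes that passed the endothelial gate, mixed ones included, 17 of 2788 in ND and none of 1561 in HFD had 4 or more H19 UMIs, a limit chosen after the values had been seen. The 17 held 519 of the 550 H19 UMIs of those ND barcodes, from 4 to 249 each with a median of 16. They were deep, with a median of 19753 UMIs against 3860 in the others, and 10 of them also passed another gate. Leading genes were ranked by the ratio of CPM + 10 in these barcodes to CPM + 10 in the others, among genes found in at least 40% of them. The first 3 were Ahsg (1450 CPM against 20.6 CPM), a plasma glycoprotein gene, Epha7 (429 CPM against 1.40 CPM), an ephrin receptor, and the matrix gene Postn (1063 CPM against 45.5 CPM). Among the first 10 were also Hand2 (191 CPM against 3.34 CPM), a transcription factor of the developing heart, the lymphatic and valve factor Prox1 (323 CPM against 14.2 CPM) and the proteoglycan Dcn (4892 CPM against 348 CPM). The endothelial gate genes summed to 2936 CPM in them, against 6281 CPM over all barcodes that passed the gate, and the fibroblast gate genes to 484.5 CPM against 319 CPM. The set is given no cell type name.

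To ask whether the same kind of barcode was in HFD, barcodes with at least 3 of the 6 leading genes (Ahsg, Epha7, Postn, Lsamp, Ltbp1, Txndc16) were taken in both libraries; the 6 genes were chosen from ND barcodes, so ND and HFD counts are not a like comparison. ND had 32 such barcodes, 1.15% of those past the endothelial gate, with H19 at 1025 CPM and in 22 of 32 barcodes. HFD had 5 (0.320%), with no H19 UMI, which allows up to 66.0 CPM and a share of barcodes of up to 52.2%. The ND level is raised by the choice of these genes from H19-rich barcodes, so no difference is read from these values.

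In fibroblasts H19 was at 45.8 CPM in ND (38.6 to 53.9; 144 UMIs) and 28.4 CPM in HFD (20.8 to 37.8; 46 UMIs), a log2 ratio of -0.69 (-1.20 to -0.20). The 5 highest ND cells held 63.2% of the UMIs, and without the 5 highest of each library the log2 ratio was -0.07 (-0.81 to 0.63). It was found in 28 of 815 ND and 23 of 356 HFD cells, and after thinning in 2.05% and 2.53%. Pi16-gate fibroblasts, an adventitial subset, carried most of it, with 122 of the 144 ND UMIs and 38 of the 46 HFD UMIs. The sum was thus lower in HFD, and the interval held 0 once the highest cells were left out.

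Igf2, the neighbour of H19, was barely detected. It had 19 UMIs in 15 of 5416 ND cells and 9 UMIs in 9 of 2739 HFD cells, or 0.700 CPM and 0.524 CPM. Mixed barcodes held 8 of the ND UMIs and endothelial cells 7, and a difference between diets was not detectable at this depth.

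**Figure D2:**
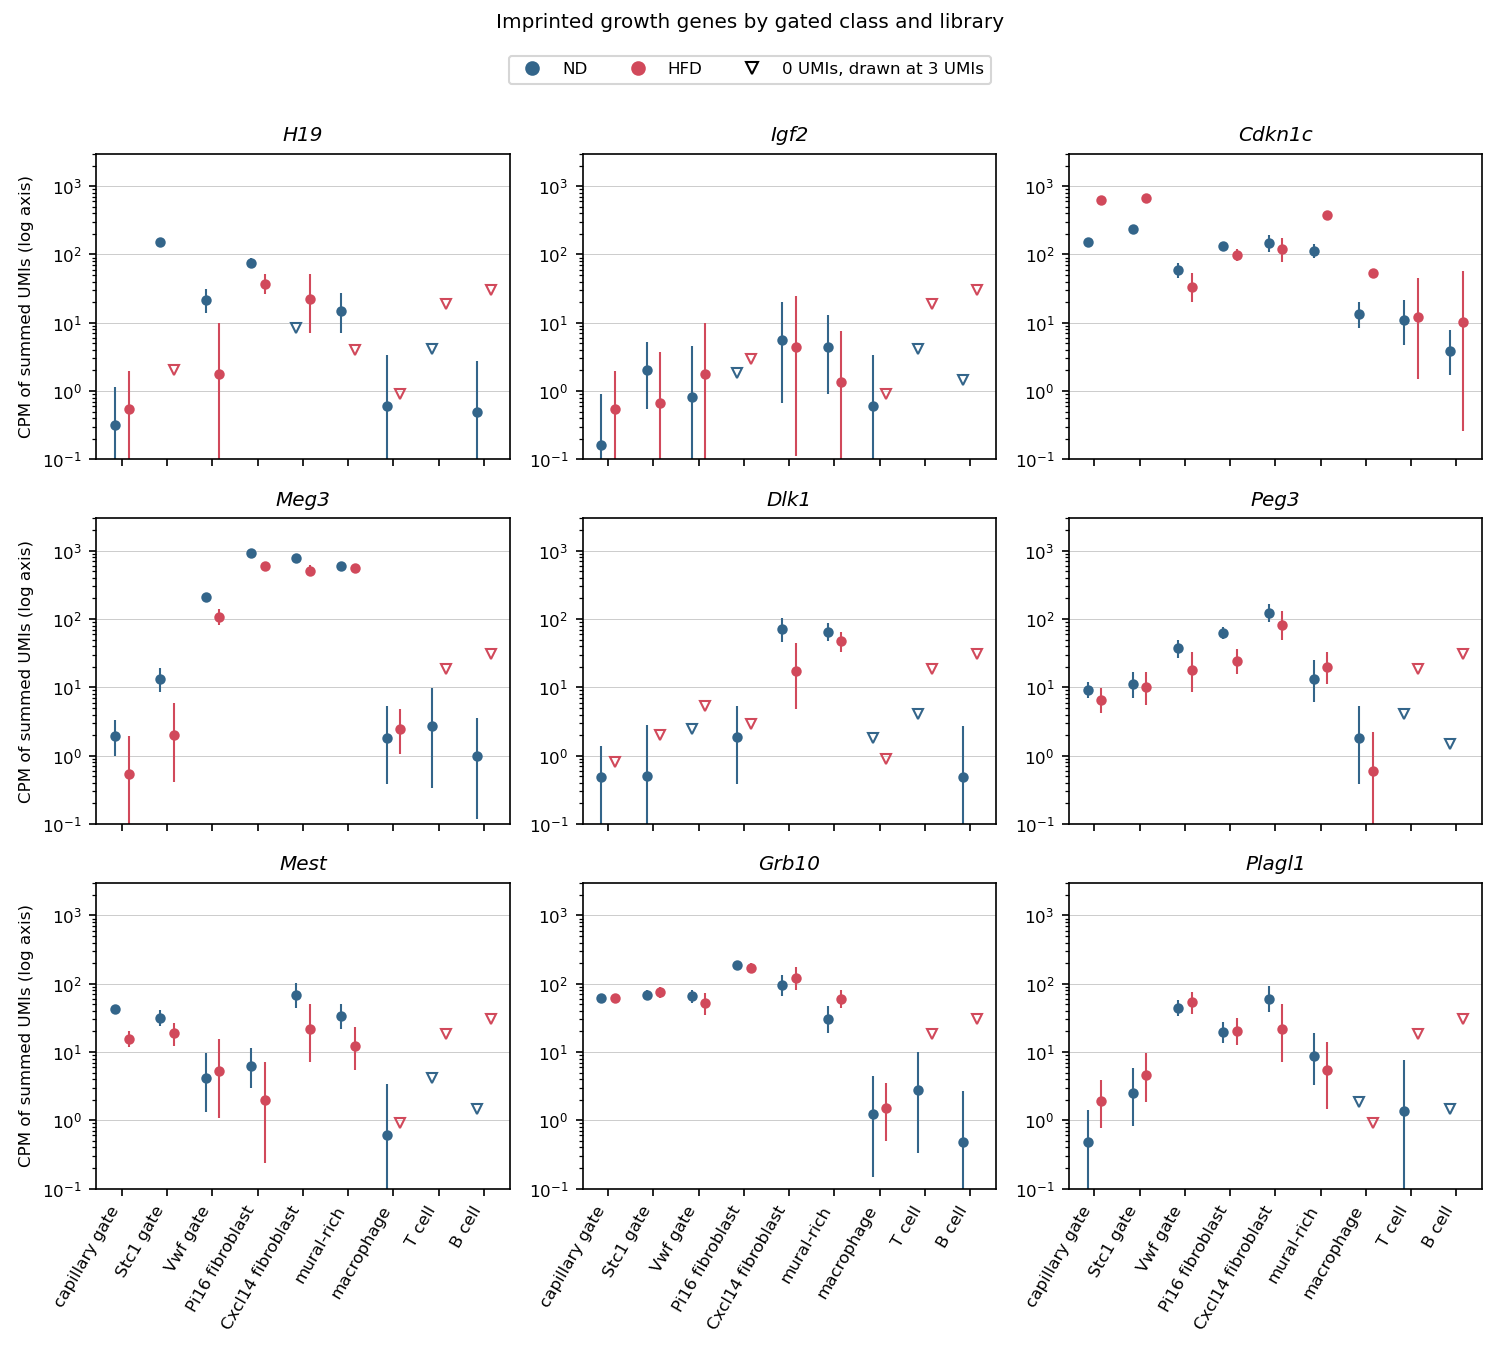
Level of each gene in 9 gated sets of cells (horizontal axis), as CPM of summed UMIs on a log axis, ND in blue and HFD in red; bars are exact Poisson 95% intervals, and open triangles mark 0 UMIs drawn at the level of 3 UMIs. Meg3 and Peg3 are high in fibroblasts and low in macrophages, T cells and B cells, and Cdkn1c is highest in the HFD capillary and Stc1 gates.

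**Figure D3:**
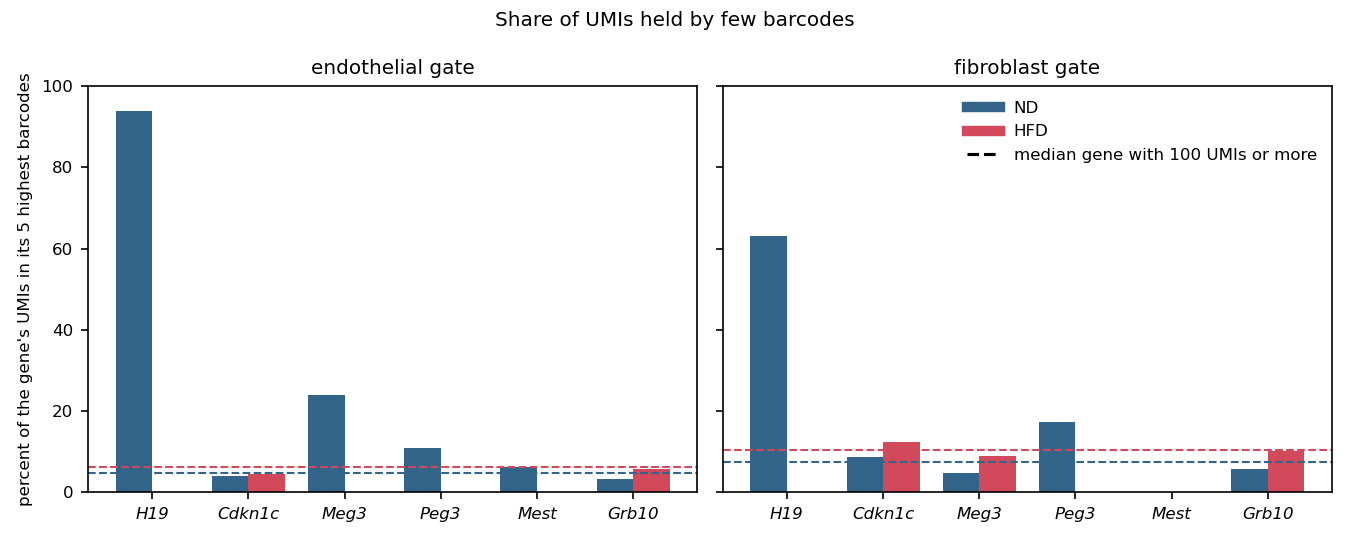
Percent of a gene's UMIs held by its 5 highest barcodes (vertical axis) in endothelial cells and fibroblasts, ND in blue and HFD in red; genes with fewer than 100 UMIs in that library are not drawn, and dashed lines give the median gene with at least 100. H19 stands at 93.8% and 63.2% in ND, and Cdkn1c lies near the median.

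Meg3 was found in most fibroblasts. It was at 845 CPM in ND fibroblasts (813 to 878; 2658 UMIs) and 565 CPM in HFD fibroblasts (529 to 602; 916 UMIs), a log2 ratio of -0.58 (-0.69 to -0.47). It was found in 632 of 815 and in 260 of 356 cells, and after thinning in 48.3% and 34.8%. Each fibroblast subset was lower in HFD: 939 CPM against 607 CPM in the Pi16 gate, 782 CPM against 512 CPM in the Cxcl14 gate and 878 CPM against 552 CPM in the Inmt gate, the last with 22 HFD cells and 2 of its 3 check markers higher than over all kept cells. The intervals of the levels did not overlap in any of these 3 subsets. Fibroblast gate genes were also lower in HFD fibroblasts, at 12660 CPM in ND and 7739 CPM in HFD. The median mitochondrial percent over all kept cells was 16.83 in ND and 21.88 in HFD. A link of either to the Meg3 level was not tested.

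Among endothelial cells Meg3 was found mostly in the Vwf gate, with 251 of 289 ND UMIs and 61 of 71 HFD UMIs. Its level there was 207 CPM in ND and 108 CPM in HFD, a log2 ratio of -0.93 (-1.36 to -0.52), and capillary-gate cells were at 1.92 CPM and 0.544 CPM. Over all endothelial cells the log2 ratio was -1.28 (-1.67 to -0.90), and with barcodes of several gates counted in each it was 0.03. In mural-rich barcodes the levels were 605 CPM and 565 CPM, beside fibroblast gate genes at 751 CPM and 4203 CPM, and in their pericyte subset 906 CPM and 738 CPM, beside 1009 CPM and 200.1 CPM of those genes. The few cells that passed the mural gate alone and held pericyte gate genes had more Meg3 than fibroblasts. They were at 2899 CPM in ND (2080 to 3933; 41 UMIs in 5 cells) and 2648 CPM in HFD (2035 to 3388; 63 UMIs in 6 cells), with overlapping intervals. In macrophages Meg3 had 3 UMIs in ND and 8 in HFD.

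Dlk1, the neighbour of Meg3, was rare. In fibroblasts it had 97 UMIs in 20 of 815 ND cells (30.8 CPM, 25.0 to 37.6) and 6 UMIs in 3 of 356 HFD cells (3.70 CPM, 1.36 to 8.05), a log2 ratio of -3.06 (-4.54 to -1.89). The 5 highest ND cells held 51 of the 97 UMIs, and the 5 highest HFD cells all 6. In barcodes that passed the fibroblast gate but were left out for mitochondrial RNA, the order was the other way round: Dlk1 had no UMI in 443 ND barcodes and 31 UMIs in 6 of 499 HFD barcodes (28.0 CPM). The order of the diets in Dlk1 thus differed between kept and left-out barcodes.

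The Dlk1-rich barcodes of ND that passed the fibroblast gate held other genes at a higher level than the rest. Of the barcodes passing the fibroblast and not the endothelial gate, 12 of 1075 in ND and none of 455 in HFD had 4 or more Dlk1 UMIs. The 12 ND barcodes, of which 3 also passed another gate, held from 5 to 13 each. Their leading genes were Angpt4 (527 CPM against 27.0 CPM in the others), an angiopoietin, the fibrillar collagen Col11a1 (156 CPM against 2.23 CPM) and the mesenchymal transcription factor Barx1 (156 CPM against 2.90 CPM). Myoc, a secreted glycoprotein gene, was at 1386 CPM against 119.9 CPM. Angpt4 was found in 66.7% and Myoc in 75.0% of these barcodes, and Col11a1 and Barx1 each in 41.7%. Peg3 was also among their 10 leading genes, at 507.5 CPM against 68.5 CPM, and was found in 41.7% of them. At least 3 of the 6 leading genes (Angpt4, Col11a1, Barx1, Cntfr, Myoc, Stc1) were found in 28 of 1075 ND barcodes and in 0 of 455 HFD barcodes. The genes were chosen from Dlk1-rich ND barcodes, so no difference is read from these counts. Outside fibroblasts, mural-rich barcodes held Dlk1 at 64.8 CPM (44 UMIs) in ND and 47.1 CPM (35 UMIs) in HFD, with overlapping intervals. Most of it lay in their pericyte subset, at 105 CPM in ND (38 UMIs in 14 of 46 barcodes) and 59.1 CPM in HFD (31 UMIs in 15 of 69). These levels were above those of all fibroblasts, and their intervals overlapped. The subset with contractile gate genes had 0 Dlk1 UMIs in both libraries.

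Peg3 was at 84.6 CPM in ND fibroblasts (74.7 to 95.4; 266 UMIs) and 40.1 CPM in HFD fibroblasts (30.9 to 51.1; 65 UMIs), a log2 ratio of -1.08 (-1.49 to -0.68). Within the Pi16 gate the levels were 62.3 CPM and 24.6 CPM, and within the Cxcl14 gate 124 CPM and 83.2 CPM, with overlapping intervals in the latter. As with Dlk1, the fibroblast barcodes left out for mitochondrial RNA showed the reverse order, 30.2 CPM in ND (14 UMIs) and 80.3 CPM in HFD (89 UMIs). In endothelial cells Peg3 was at 13.1 CPM and 8.44 CPM, a log2 ratio of -0.64 (-1.14 to -0.15), highest in the Vwf gate at 37.1 CPM and 17.8 CPM. At a mitochondrial limit of 10% the endothelial log2 ratio was 0.53, the other direction.

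Mest was found in endothelial cells and in some fibroblasts. It was at 34.7 CPM in ND endothelial cells (31.1 to 38.6; 338 UMIs) and 15.3 CPM in HFD (12.3 to 18.9; 89 UMIs), a log2 ratio of -1.18 (-1.53 to -0.84). In capillary-gate cells the levels were 41.9 CPM and 15.8 CPM, and in Stc1-gate cells 31.7 CPM and 18.7 CPM. Vwf-gate cells had 5 and 3 UMIs. In Cxcl14-gate fibroblasts Mest was at 68.9 CPM in ND (25 UMIs) and 21.9 CPM in HFD (5 UMIs), and in fibroblasts of no subset gate at 14.5 CPM (12 UMIs) and 30.4 CPM (9 UMIs). Over all fibroblasts the log2 ratio was -0.63 (-1.51 to 0.19), and -1.97 without the 5 highest cells of each library; in HFD these held 12 of the 17 UMIs. The level of Mest was thus lower in HFD in the capillary, Stc1 and Cxcl14 gates, with overlapping intervals in the Stc1 and Cxcl14 gates. After thinning, 3.1% of ND and 3.7% of HFD Stc1-gate cells had a UMI, the other direction. Pi16-gate fibroblasts were also lower, at 6.17 CPM (10 UMIs) and 1.97 CPM (2 UMIs), with overlapping intervals. The Vwf gate and fibroblasts of no subset gate were not lower, on 3 and 9 HFD UMIs. ND capillary-gate cells with 2 or more Mest UMIs (47 of 1603) were led by the basement membrane gene Nid2 (126 CPM against 25.7 CPM in the others), Vim (811 CPM against 287 CPM) and Lgals1 (262 CPM against 118 CPM). They were also deeper, with a median of 7351 UMIs against 2909.5. In HFD, 8 of 698 capillary-gate cells had 2 or more Mest UMIs. Those 8 were led by Cox16, Hars2 and Stat6, and Nid2, Vim and Lgals1 were not among their first 10 genes, a ranking that rests on 8 cells. At least 3 of the 6 leading ND genes (Nid2, Vim, Lgals1, Anxa6, Tmem176b, Emp1) were found in 266 of 1603 ND and 223 of 698 HFD capillary-gate cells. Mest was at 67.5 CPM and 21.1 CPM in these. The 6 genes were chosen from ND cells with 2 or more Mest UMIs, so no difference is read from these values.

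Grb10 was close in both libraries in endothelial cells and fibroblasts. It was at 62.9 CPM in ND and 64.8 CPM in HFD endothelial cells, a log2 ratio of 0.04 (-0.15 to 0.23), and at 144 CPM in both libraries in fibroblasts, a log2 ratio of 0.00 (-0.23 to 0.23). Its highest level was in Pi16-gate fibroblasts, 189 CPM and 171 CPM, and it was nearly even over the capillary, Stc1 and Vwf gates, at 61.5 CPM, 68.4 CPM and 65.1 CPM in ND. At a mitochondrial limit of 10%, which left 7 HFD fibroblasts with 5 Grb10 UMIs, the fibroblast log2 ratio was -1.15 (-2.80 to 0.10). In mural-rich barcodes Grb10 was at 30.9 CPM in ND (21 UMIs) and 60.6 CPM in HFD (45 UMIs), a log2 ratio of 0.97 (0.19 to 1.79). Fibroblast gate genes were at 751 CPM and 4203 CPM in the same barcodes. After thinning, Grb10 was found in 2.17% of them in ND and 1.15% in HFD, the other direction. In their pericyte subset Grb10 was at 41.5 CPM in ND (15 UMIs) and 66.7 CPM in HFD (35 UMIs), with overlapping intervals. Fibroblast gate genes in that subset were at 1009 CPM and 200.1 CPM. The part of fibroblast RNA in these values was not tested.

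Plagl1 marked the Vwf gate among endothelial cells. It was at 44.5 CPM in ND (54 UMIs) and 53.3 CPM in HFD (30 UMIs) there, against 0.480 CPM and 1.90 CPM in capillary-gate cells. In fibroblasts it was at 21.6 CPM and 19.7 CPM, a log2 ratio of -0.13 (-0.79 to 0.49). The interval of its log2 ratio held 0 in each of these. In Cxcl14-gate fibroblasts it was at 60.6 CPM in ND (22 UMIs) and 21.9 CPM in HFD (5 UMIs), a log2 ratio of -1.47 (-3.23 to -0.03). After thinning it was found in 0 of 98 cells in ND and 2 of 60 in HFD, the other direction.

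**Figure D4:**
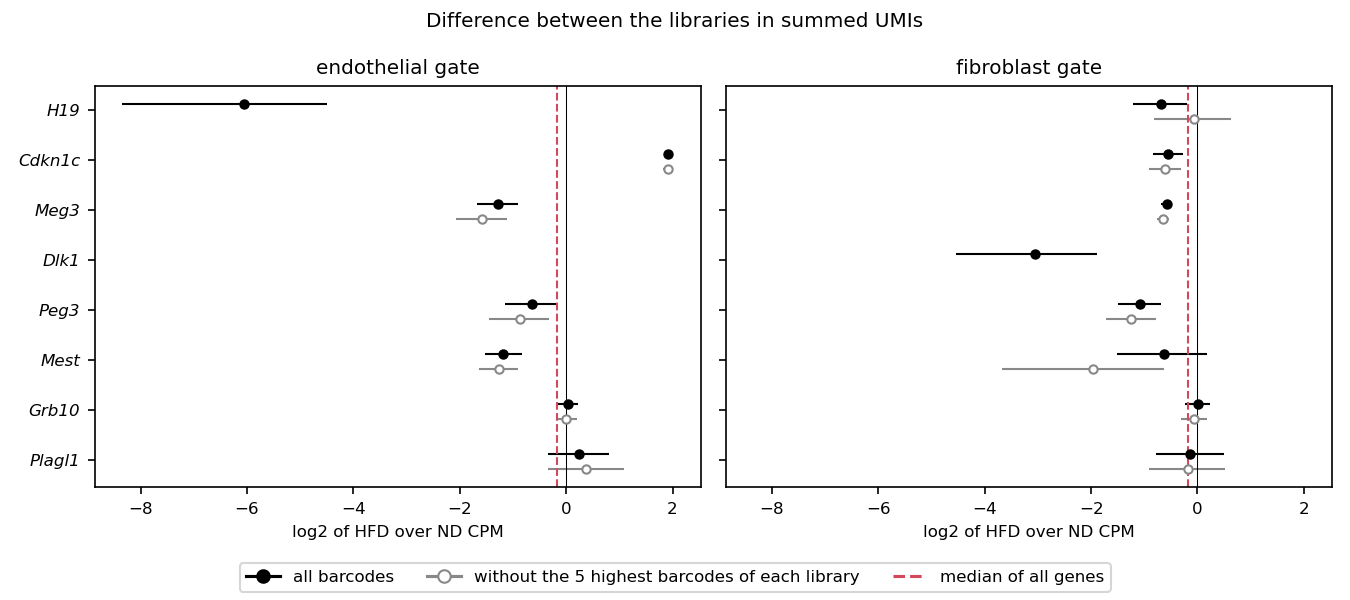
Log2 ratio of HFD to ND CPM (horizontal axis) of 8 members in endothelial cells and fibroblasts, with exact 95% count intervals; black for all barcodes, open grey without the 5 highest barcodes of each library, and a dashed red line for the median of all genes with at least 20 UMIs. Endothelial Cdkn1c stands at 1.92 with and 1.91 without the highest barcodes, and no grey point is drawn where HFD had 0 UMIs left, as for endothelial H19 and fibroblast Dlk1; Dlk1 was not counted in endothelial cells.

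Of the 9 members, 7 had at least 20 UMIs in endothelial cells. A level at least 2-fold higher in HFD was seen for 1 of 7, Cdkn1c, where 2.18% of all endothelial genes passed that fold, and at least 2-fold lower for 3 of 7 (H19, Meg3 and Mest), where 8.0% passed. The H19 count rests on few cells, since the 5 highest ND cells held 93.8% of its UMIs. Under some processing alternatives Meg3 and Mest were not 2-fold lower, with log2 ratios of up to 0.03 and -0.75. In fibroblasts 8 members had at least 20 UMIs, 0 were at least 2-fold higher (2.11% of all genes) and 2 were at least 2-fold lower, Dlk1 and Peg3 (7.58%). Peg3 was not 2-fold lower there under some alternatives, with a log2 ratio of up to -0.7. In macrophages only Cdkn1c reached 20 UMIs, and it was among the 4.12% of genes at least 2-fold higher, while 7.64% were at least 2-fold lower. In the capillary gate 1 of 4 members was higher, Cdkn1c (2.94% of all genes), and 1 lower, Mest (8.11%). In the Stc1 gate 1 of 6 was higher, Cdkn1c (2.09%), and 2 were lower, H19 and Meg3 (7.44%). Both lower counts rest on few cells. All 299 ND H19 UMIs there lay in 3 of 321 cells, and the shares of cells with a UMI had overlapping intervals. For Meg3, 25 of its 26 ND UMIs there lay in 5 of 321 cells and HFD had 3 UMIs. In the Vwf gate 0 of 6 were higher (3.65%) and 2 were lower, H19 and Peg3 (6.46%), with the 26 ND UMIs of H19 in 6 of 195 cells. In Pi16-gate fibroblasts 0 of 6 were higher (1.99%) and 2 were lower, H19 and Peg3 (6.68%), but without the 5 highest cells of each library H19 was at 19.1 CPM and 18.7 CPM. In Cxcl14-gate fibroblasts 0 of 7 were higher (3.9%) and 3 were lower, Dlk1, Mest and Plagl1 (11.4%), on 4, 5 and 5 HFD UMIs. The members were chosen with the diet differences of these libraries known, so these counts describe them and support nothing.

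Between classes, 5 of 8 members were at least 2-fold higher in ND fibroblasts than in ND endothelial cells (Meg3, Dlk1, Peg3, Grb10 and Plagl1), as were 20.6% of all genes. Mest was at least 2-fold higher in endothelial cells, as were 18.6%. In HFD the 5 of 7 were H19, Meg3, Peg3, Grb10 and Plagl1 (20.3% of all genes), and Cdkn1c was at least 2-fold higher in endothelial cells (19.4%). Against the capillary gate, the Vwf gate was at least 2-fold higher for Meg3, Peg3 and Plagl1 in both libraries and for H19 in ND, with 18.8% of all genes in ND and 21.4% in HFD. The capillary gate was at least 2-fold higher for Cdkn1c and Mest in both libraries (15.0% and 13.8% of all genes). Against the capillary gate, the Stc1 gate was at least 2-fold higher for H19 and Meg3 in ND (3.73% of all genes) and for 0 of 4 members in HFD (2.97%). Without the 5 highest cells of each gate, ND Meg3 was at 0.503 CPM in the Stc1 gate and 1.12 CPM in the capillary gate, the other direction, and all H19 UMIs of the Stc1 gate lay in 3 cells. Between fibroblast gates, Cxcl14 was at least 2-fold above Pi16 for Dlk1, Mest and Plagl1 in ND (6.77%) and for Peg3 in HFD (7.68%), and Pi16 was above Cxcl14 for H19 in ND (13.5%) and for 0 of 6 members in HFD (15.3%).

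The genes with the most similar pattern were found by Pearson's r of log2(CPM + 10) over 29 class and library points with at least 20 cells. The points share their libraries, and some are subsets of others, so r is a description. Cdkn1c went most with Cxcl12 (0.90), a chemokine, Rhoc (0.88), Akap12 (0.87), Pls3 (0.87) and Eml1 (0.86). Meg3 went with Gpc6 (0.98), Lhfp (0.97), Col5a1 (0.97), Mxra8 (0.96) and Maged2 (0.96), and Peg3 with Boc (0.96), Fkbp7 (0.96), Gstt1 (0.955), Scarf2 (0.94) and Oaf (0.94). Grb10 went with Cd34 (0.975), Nid1, Ltbp4, Thbd and Plat, Dlk1 with Rspo1 (0.90), Inmt, Apod, Lamc3 and Ism1, and Mest with Pcdhgb4 (0.87), Vwa1, Igfbp3, Lrch2 and Colgalt2. The closest for Plagl1 were Vangl1 (0.85), Nrbp2, Tcaf1, Sardh and Tmem14a. H19 had no close match, the highest being Aif1l (0.68), followed by Olfml2a, Samd4b, Ackr3 and Tmem100. Among the members themselves, Meg3 and Peg3 were most alike (0.91), and H19 with Dlk1 least (0.10).

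Genes that work with the members were taken as lists. The insulin-like growth factor axis, with ligands, receptors, substrates and binding proteins, had 13 of 17 genes with at least 20 UMIs in endothelial cells, of which 0 were at least 2-fold higher (2.18% of all genes) and 4 at least 2-fold lower in HFD (8.0%), with a median log2 ratio of -0.76 against -0.18 over all genes. The 4 were the ligand Igf1 (12.1 CPM in ND and 1.72 CPM in HFD) and the binding proteins Igfbp3 (139 CPM and 44.3 CPM), Igfbp5 (192 CPM and 93.5 CPM) and Igfbp6 (9.14 CPM and 4.13 CPM). Fibroblast gate genes in the same endothelial cells were at 52.5 CPM in ND and 32.9 CPM in HFD. The part of fibroblast RNA in these values was not tested. Igfbp7, the member with the most endothelial UMIs, was at 1001 CPM and 804 CPM. In fibroblasts 14 were counted, 0 higher (2.11% of all genes) and 2 lower (7.58%), Igf1 (348 CPM and 122 CPM) and Igfbp5 (8396 CPM and 3328 CPM), with a median of -0.02. In macrophages 3 of 11 were at least 2-fold higher (4.12% of all genes), among them Igf2r (8.57 CPM and 33.9 CPM), the receptor that clears Igf2, and Htra1 (8.57 CPM and 57.5 CPM), a protease, and 3 were at least 2-fold lower (7.64%), among them Igfbp4 (370 CPM and 107 CPM).

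Of the other cyclin-dependent kinase inhibitors, 4 of 7 had at least 20 UMIs in endothelial cells, and 0 passed 2-fold in either direction (2.18% of all genes higher, 8.0% lower). Cdkn1a, of the same family as Cdkn1c, was at 1669 CPM in ND and 1922 CPM in HFD, a log2 ratio of 0.20 (0.17 to 0.24), and Cdkn1b at 44.2 CPM and 28.4 CPM, a log2 ratio of -0.64 (-0.90 to -0.37). In fibroblasts 0 of 4 passed 2-fold (2.11% and 7.58%), with Cdkn1a at 311 CPM and 185 CPM. In macrophages 0 of 4 were at least 2-fold higher (4.12%) and 1 lower (7.64%), Cdkn1b, at 49.0 CPM and 21.2 CPM.

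Of 43 other imprinted genes, 41 were found by symbol and 24 had at least 20 UMIs in endothelial cells. Of these 0 were at least 2-fold higher (2.18% of all genes) and 3 at least 2-fold lower in HFD (8.0%): Airn (20.6 CPM and 9.30 CPM), Slc38a4 (5.85 CPM and 0.861 CPM) and Snrpn (4.62 CPM and 2.24 CPM), with a median log2 ratio of -0.29. Kcnq1ot1, the long noncoding RNA of the imprinted domain that holds Cdkn1c, was at 99.5 CPM in ND and 139 CPM in HFD, a log2 ratio of 0.48 (0.342 to 0.615), and the tetraspanin gene Cd81 was at 876 CPM and 1127 CPM. In fibroblasts Kcnq1ot1 was at 221 CPM and 145.5 CPM, and 0 of 24 genes were at least 2-fold higher (2.11% of all genes) and 2 lower (7.58%), Peg10 and Zim1, on 21 and 28 UMIs. In macrophages 1 of 13 was at least 2-fold higher, Igf2r again (4.12%), and 2 were lower (7.64%), Cd81 (717 CPM and 336.5 CPM) and Ppp1r9a (13.5 CPM and 4.84 CPM).

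Of the Notch receptors and their ligands, to which Dlk1 is related, 7 of 9 had at least 20 UMIs in endothelial cells, and 0 passed 2-fold in either direction (2.18% of all genes higher, 8.0% lower), with Notch1 at 339.5 CPM in ND and 278 CPM in HFD and Jag2 at 162 CPM and 213 CPM. In fibroblasts 0 of 3 passed (2.11% and 7.58%), and in macrophages 0 of 4 were at least 2-fold higher (4.12%) and 2 lower (7.64%), Notch1 (72.3 CPM and 35.4 CPM) and Jag1 (12 UMIs in each library).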

How the data were processed

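Cells of the aortic arch were profiled with the 10x Genomics platform. The authors made UMI counts per gene and barcode with Cell Ranger (3.0.1 per the file headers) on mm10 per the labels and deposited them as raw counts, without normalization, for each library and for both joined. The joined counts held 24459 barcodes and 0 entries that differed, and were not used. Processing notes also name bcl2fastq, UMI-tools, Seurat 3.2.0 and R 4.0.0.

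The study's own filter was applied: a barcode needed 200 genes, 200 UMIs and no more than 30% mitochondrial RNA, which left the numbers its labels give. Classes came from 13 lineage gates of marker genes. CPM are summed UMIs of a gene per class over the UMI total of that class. Exact 95% intervals were Poisson (levels), Clopper-Pearson (shares of cells) and, for log2 ratios, binomial conditional on the sum of both counts. A count of 0 allows 3 UMIs. A gene counted towards the percent past 2-fold with at least 20 UMIs over both libraries. With 1 library per diet there was no test. Doublets were not removed, and as an alternative the highest 6% of Scrublet scores (scanpy 1.11.5) were left out of each library; Scrublet itself called 94 ND and 9 HFD cells. The ratio steps were run on simulated Poisson counts, the counting error that the intervals assume. That run held no spread between cells or mice, so it cannot show how the intervals behave under such spread.

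The members, gates and lists were chosen with earlier results of these data known. All 9 members are named. From each list up to 4 genes with the most UMIs and up to 4 past 2-fold could be named, and for each member with at least 200 UMIs the 5 genes of most similar pattern. The mural-rich set, the barcodes rich in a gene and their leading genes were chosen after the values had been seen. Positions are from GENCODE M21. Calculations used Python 3.11.15, numpy 2.4.6, scipy 1.17.1, pandas 2.3.3 and matplotlib 3.10.9.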

Additional observations from a re-analysis of the deposited data

Results flagged for a closer look

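Cdkn1c went in opposite directions between diets in different classes: its log2 ratio of HFD to ND was 2.06 in capillary-gate cells, 1.55 in Stc1-gate cells and 1.97 in macrophages, but -0.79 in Vwf-gate cells and -0.55 in fibroblasts, each with a count interval that left out 0. With 1 library per diet the difference between classes was not tested. The macrophage value rests on 6 cells, and the fibroblast value reversed with barcodes of several gates counted in each.

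Barcodes left out for mitochondrial RNA held 3 members at a higher level in HFD than in ND. For Cdkn1c in endothelial barcodes this is the direction of the kept cells, and for Dlk1 and Peg3 in fibroblast barcodes it is the opposite one. Among left-out barcodes that passed the endothelial gate, Cdkn1c was at 374 CPM in 4296 HFD barcodes (3637 UMIs) and at 99.9 CPM in 1125 ND barcodes (155 UMIs). Among those that passed the fibroblast gate, Dlk1 was at 28.0 CPM in HFD and at 0 UMIs in ND, where 3 UMIs would be 6.47 CPM, and Peg3 was at 80.3 CPM in HFD and 30.2 CPM in ND.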

How the results depend on the processing

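Each alternative changed 1 choice; the cause of a change was not tested. The log2 ratio of Cdkn1c in endothelial cells stayed above 0 under all 10 alternatives, from 1.49 to 2.08: 1.76 at a mitochondrial limit of 20%, 1.49 at 10%, 1.83 with barcodes of several gates counted in each, 2.06 without mitochondrial, haemoglobin and ribosomal protein genes, 2.08 with the median of ratios and 2.02 as a mean over cells. In fibroblasts Cdkn1c was at most -1.10 at the limit of 10%, where HFD had 0 UMIs, -0.14 after thinning and reversed to 0.31 with barcodes of several gates. H19 in endothelial cells moved to -3.70 after thinning and to at most -2.06 without the 5 highest barcodes, with 0 HFD UMIs left, and in fibroblasts to -1.99 with barcodes of several gates and to -0.07 without the 5 highest. Among other values whose count interval left out 0, the direction reversed in 4 cases: endothelial Peg3 at the limit of 10% (0.53), endothelial Meg3 with barcodes of several gates (0.03), and mural Meg3 (1.46 as gated, on 26 ND and 11 HFD cells) with those barcodes (-0.29) and without the 5 highest (-0.17). Cells with pericyte gate genes, where Meg3 was high in both libraries, were 5 of the 26 ND and 6 of the 11 HFD mural cells. Values whose interval held 0 also changed sign under some alternatives: Igf2, Grb10 and Plagl1 in endothelial cells (Plagl1 from -0.31 to 0.99) and in fibroblasts (Grb10 from -1.15 to 0.23), and mural Cdkn1c (-0.82 as gated, from -0.84 to 1.71) and mural Peg3 (from -1.01 to 1.24). Fibroblast Mest kept its sign, from -3.34 to -0.45. The percent of genes past 2-fold was 5.48% in endothelial cells and 5.04% in fibroblasts with at least 100 UMIs, and 27.5% and 29.1% with at least 1. Leaving out the 5 highest barcodes and the mural-rich set were chosen after seeing the data. No paired analysis was possible because each diet had 1 library.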
